A study of Homo sapiens with 6 samples.

Results

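The interleukin 1 (IL-1) family ligands, receptors and adaptors were followed in SK-Hep1 cells given an inhibitor of the microRNA miR-21. The group was defined by a list of 10 genes, and its members were all probe sets that the array annotation assigns to one of them alone. This gave 23 probe sets of 54613, excluding array controls. IL1A, IL1B and IL33 encode ligands, and IL1RN encodes the receptor antagonist. IL1R1, IL1RAP and IL1RL1 encode receptor chains, and MYD88, IRAK1 and TRAF6 encode the signalling proteins that act below the receptor.

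SK-Hep1 is a human cell line, long in culture, that was derived from an adenocarcinoma of the liver. Both groups were plated 24 hours before a lipid transfection and harvested 16 hours after it, with 3 arrays of separate biological replicates per group. The treated group received anti-miR-21, an oligonucleotide directed against miR-21, at 20 nM, and the mock group went through the same transfection with PBS in its place. No control oligonucleotide is described, so the sequence-specific inhibitor and the presence of any oligonucleotide cannot be told apart. The harvest is described by reference to an Argonaute immunoprecipitation protocol while the molecule is labelled total RNA, and which fraction was hybridised is not settled by the sources used here. The labels do not say whether the cultures of a group were grown at separate times, so the p values cover only the spread among these samples, which may be technical.

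In IL-1 signalling, IL-1α (from IL1A) and IL-1β (from IL1B) each bind the receptor IL1R1, which then pairs with the accessory chain IL1RAP. The paired receptor recruits MYD88, which brings in IRAK kinases and the ubiquitin ligase TRAF6, and these activate the kinase complexes that release NF-κB. IL1RN blocks IL1R1 without triggering it, and IL-33 uses IL1RL1 together with the same accessory chain. IL-1α is active as its full-length precursor and can act at the surface of the cell that makes it, whereas IL-1β needs cleavage, usually by caspase-1. In liver, IL-1 is known for driving the acute phase response of hepatocytes.

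A pair of microRNAs frames the comparison, and their mature sequences are given with the seed, bases 2 to 8, in capitals. miR-21-5p (chr17:59841273-59841294, plus strand) is the intended target of the inhibitor. miR-146a-5p (chr5:160485372-160485393, plus strand) is a known repressor of IRAK1 and TRAF6. Both sequences are from RefSeq on GRCh38.p14, and their seeds differ.
hsa-miR-21-5p: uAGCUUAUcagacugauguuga
hsa-miR-146a-5p: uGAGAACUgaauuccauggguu

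IL1A and IL1B are neighbours on chromosome 2 (GRCh38.p14, 112773925 to 112784493 and 112829751 to 112836779) and only IL1A was called as changed, so the 250 bases upstream of each annotated start are shown from RefSeq on GRCh38.p14, both on the minus strand. For IL1A the window is chr2:112784494-112784743, upstream of the outer of its 2 annotated starts, and for IL1B it is chr2:112836780-112837029. Capitals mark matches on either strand to TGANTCA, the core letters of an AP-1 motif, and to TATAAA. The motifs did not overlap in these windows.
IL1A: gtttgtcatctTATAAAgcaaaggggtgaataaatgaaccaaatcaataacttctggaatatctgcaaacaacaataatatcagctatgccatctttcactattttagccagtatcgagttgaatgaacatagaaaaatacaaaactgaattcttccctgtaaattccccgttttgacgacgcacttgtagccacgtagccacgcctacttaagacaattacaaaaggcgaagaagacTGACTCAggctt
IL1B: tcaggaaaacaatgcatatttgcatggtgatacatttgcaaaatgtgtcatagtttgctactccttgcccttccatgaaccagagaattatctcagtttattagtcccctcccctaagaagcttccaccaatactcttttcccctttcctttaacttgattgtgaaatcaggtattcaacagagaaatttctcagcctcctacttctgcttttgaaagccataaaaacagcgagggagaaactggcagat

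The IL1A window held 1 TGANTCA match, at position -12 from the start, and 1 TATAAA match, at -239. The window of the inner IL1A start, chr2:112784401-112784650, overlaps this one and held 2 TGANTCA matches, at -105 and -55, and no TATAAA match. The match at -105 is the same bases as the match at -12 of the outer window. The IL1B window held neither motif. Among 35116 annotated windows of this length, 6.57% held TGANTCA and 10.7% held TATAAA. The κB consensus, the general NF-κB motif, was found in 9.96% of all windows and in none of these. A match describes the letters only, and a window without one says nothing about the factor.

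Expression is given on the log2 scale as the authors deposited it, so a difference of 1 is a doubling. Probe sets with a mean of at least 4 over the 6 arrays were tested, since background correction draws dimmer ones towards a common low level. Of the 23 member probe sets, 12 passed this filter and represent 7 genes. The other 11 lay between 1.79 and 3.06 on every array, where the median of all probe sets below the filter was 2.44. They comprised all probe sets of IL1RN, IL1RL1 and IL33 and 1 of the 2 for IL1A. A change was called at an adjusted p below 0.05 in the limma fit over all 22408 probe sets tested.

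On each array 22277 to 22591 probe sets reached a log2 value of 4, and array medians lay between 3.02 and 3.16. On the first principal component, which held 50.4% of the variance, anti-miR-21 replicate 1 (3.51) lay between the mock arrays (-19.95 to -7.25) and the other treated arrays (19.63 and 20.11). Results that rest on this array are given with and without it.

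**Figure D1:**
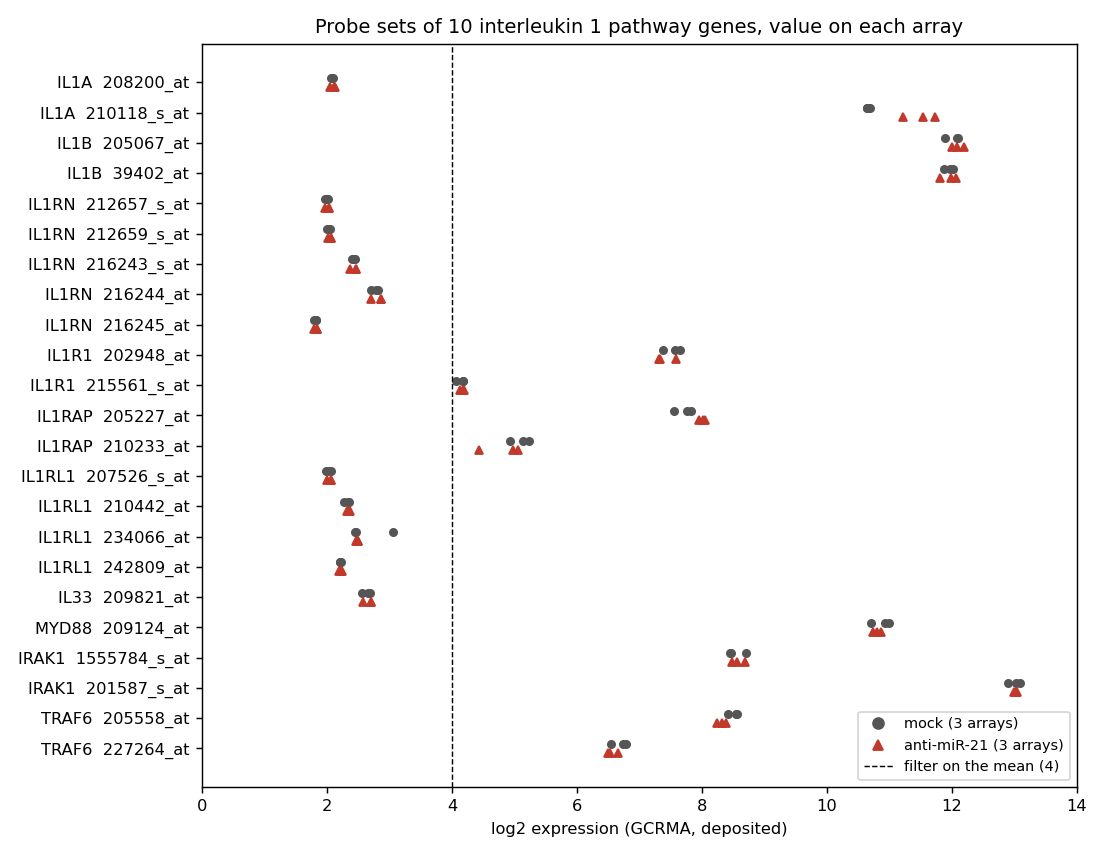
Log2 expression (horizontal axis, GCRMA values as deposited) of each of the 23 probe sets on the 3 mock arrays (circles) and the 3 anti-miR-21 arrays (triangles), with the filter at 4 as a dashed line. The 11 probe sets left of the line include every one for IL1RN, IL1RL1 and IL33, and IL1A 210118_s_at has its 3 anti-miR-21 arrays to the right of all mock arrays.

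IL1A rose 1.79-fold with anti-miR-21, and no other member was called. Of the 12 member probe sets tested, 1 was called higher and none lower. Over all probe sets, 2.17% were called in either direction and 1.10% higher. At an unadjusted p below 0.05, limma gave 2 member probe sets higher and 1 lower. The share of all probe sets at that cutoff is not given here, but such p values were common. TRAF6, with an unadjusted limma p of 0.022 on its brightest probe set, ranked only 1231 by p among the 10848 genes. The median log2 fold change of the 12 was 0.008, against -0.003 over all probe sets tested. In 3 of the 12 the arrays of the groups did not overlap, which is 25.0% against 24.0% of all probe sets. Counted by the brightest tested probe set of each gene, 1 of 7 genes rose, against 0.913% of all 10848 genes. These are whole cultures, so a change in the number of cells expressing a gene and one in its RNA per cell cannot be told apart.

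Among the ligands, IL1A 210118_s_at read 10.63, 10.69 and 10.63 on the mock arrays and 11.22, 11.54 and 11.72 on the anti-miR-21 arrays. All treated arrays lay above all mock arrays, with replicate 1 the lowest of the treated. The log2 fold change was 0.84 ± 0.122 (SE of the fit, 95% interval 0.55 to 1.13, limma adjusted p = 0.025). It ranked 32 by size among the 10848 genes, counting from the largest rise. The SD over 3 arrays was 0.254 with anti-miR-21 and 0.032 in mock.

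The IL1A call was near the threshold. It was lost without the filter on dim probe sets (limma adjusted p = 0.0568). Leaving out mock replicate 1, 2 or 3 also ended it (adjusted p = 0.061, 0.0961 and 0.0925), as did leaving out replicate 2 or 3 of the treated group (adjusted p = 0.108 and 0.0643). It held when treated replicate 1 was left out (adjusted p = 0.00794). The log2 fold change in these fits stayed between 0.73 and 0.98. The second IL1A probe set, 208200_at, lay at background, from 2.06 to 2.13 over the 6 arrays, so the rise rests on 1 probe set.

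IL1B had a high signal in both groups and did not pass the test. IL1B 205067_at read 11.88, 12.10 and 12.08 in mock and 12.08, 12.00 and 12.19 with anti-miR-21, and the groups overlapped. Its log2 fold change was 0.07 with a 95% interval of -0.12 to 0.26 (limma adjusted p = 0.692). The other IL1B probe set, 39402_at, had a log2 fold change of 0.00 (-0.19 to 0.19, adjusted p = 0.993). Both intervals lie below that of IL1A, and the difference between the genes' changes was not tested.

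IL33, an alarmin released from damaged barrier cells, lay below the filter on its only probe set, 209821_at, from 2.57 to 2.68 in mock and 2.58 to 2.71 with anti-miR-21. The antagonist gene IL1RN has 5 probe sets, all below the filter. The brightest of them, 216244_at, read 2.82, 2.78 and 2.70 in mock and 2.71, 2.86 and 2.87 with anti-miR-21. Both genes stayed at background level in both groups, and no fold is given for them.

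**Figure D2:**
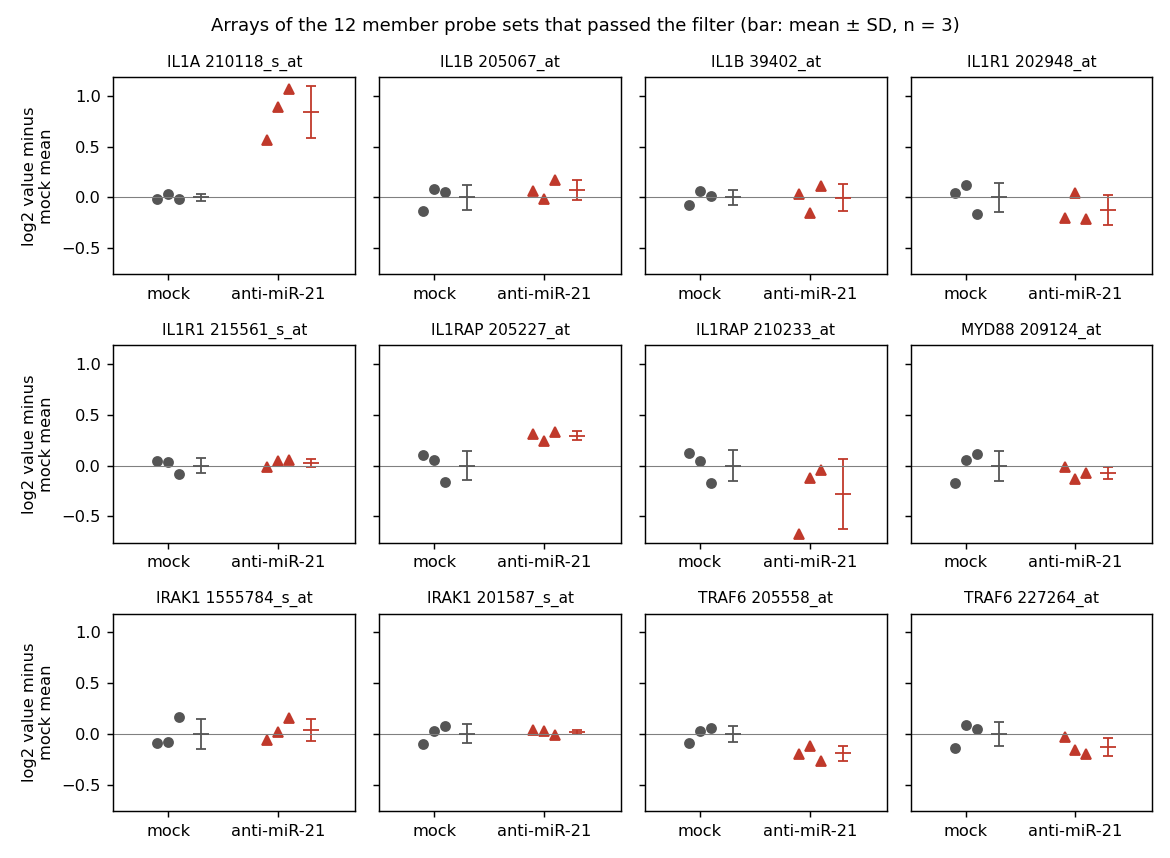
Log2 value minus the mock mean for the 12 probe sets that passed the filter, with circles for mock arrays, triangles for anti-miR-21 arrays and a bar for the mean ± SD (n = 3). The anti-miR-21 arrays stand clear of mock for IL1A 210118_s_at and IL1RAP 205227_at (above) and TRAF6 205558_at (below), and overlap with mock in the other 9.

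Among receptor chains, none was called. IL1R1, the signalling receptor for both IL-1 forms, read 7.57, 7.65 and 7.37 in mock and 7.33, 7.58 and 7.32 with anti-miR-21 on 202948_at. The groups overlapped, and the log2 fold change was -0.12 (95% interval -0.36 to 0.12, limma adjusted p = 0.575). Its second probe set, 215561_s_at, lay just above the filter at 4.14 in mock and 4.16 with anti-miR-21 (adjusted p = 0.844).

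IL1RAP, the accessory chain shared by the IL-1 and IL-33 receptors, gave opposite signs on its 2 probe sets. On 205227_at it read 7.82, 7.76 and 7.55 in mock and 8.02, 7.96 and 8.04 with anti-miR-21, without overlap. That difference of 0.30 ± 0.079 (SE, 95% interval 0.11 to 0.48) did not pass across all probe sets (unadjusted p = 0.00752, limma adjusted p = 0.12). On the dimmer 210233_at it read 5.22, 5.14 and 4.93 in mock and 4.43, 4.98 and 5.06 with anti-miR-21. There the groups overlapped, and the lowest array was anti-miR-21 replicate 1. The log2 fold change was -0.28 (95% interval -0.69 to 0.13, limma adjusted p = 0.455), and -0.08 without that array (adjusted p = 0.699).

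The disagreement of the IL1RAP probe sets was tested in a fit over all 5285 genes with at least 2 tested probe sets, of which 1.42% were called as moving apart. The log2 fold changes of 205227_at and 210233_at differed by 0.57 (95% interval 0.19 to 0.96). Without anti-miR-21 replicate 1 the difference was 0.37 (0.21 to 0.53, limma adjusted p = 0.0624), a setting chosen after the values were seen. The difference over all 6 arrays was not called (limma with Simes' method, adjusted p = 0.199), nor were the probe sets of IL1B, IL1R1, IRAK1 or TRAF6 (adjusted p = 0.585 to 0.987). Of these 5 genes, IL1RAP alone had an unadjusted p below 0.05 (0.00993).

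IL1RL1, the IL-33 receptor also known as ST2, has 4 probe sets, all below the filter. Of these, 3 lay between 1.99 and 2.36 on all arrays. The fourth, 234066_at, read 2.46, 2.47 and 3.06 in mock and 2.46, 2.49 and 2.50 with anti-miR-21, so mock replicate 3 alone was higher. Ligand and receptor of the IL-33 branch were thus both at background on these arrays.

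Among the adaptors, MYD88, the first protein to join the paired receptor, read 10.71, 10.93 and 10.98 in mock and 10.86, 10.74 and 10.80 with anti-miR-21. The groups overlapped (log2 fold change -0.07, 95% interval -0.27 to 0.12, limma adjusted p = 0.685). IRAK1, the kinase recruited by MYD88, read 12.90, 13.03 and 13.08 in mock and 13.04, 13.03 and 13.00 with anti-miR-21 on 201587_s_at. Its log2 fold change was 0.02 (95% interval -0.13 to 0.16, adjusted p = 0.909), and on 1555784_s_at it was 0.04 (-0.18 to 0.25, adjusted p = 0.866). MYD88 and IRAK1 have both been reported as miR-21 targets, and neither passed the test in either direction. With 1 array left out, the log2 fold change of MYD88 ran from -0.16 to -0.02.

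TRAF6, the ubiquitin ligase that passes the signal on to the kinase TAK1, had negative log2 fold changes on both probe sets, neither of which passed the test. On 205558_at it read 8.42, 8.54 and 8.56 in mock and 8.31, 8.39 and 8.24 with anti-miR-21, without overlap. The log2 fold change was -0.19 ± 0.065 (SE, 95% interval -0.35 to -0.04, unadjusted p = 0.022, limma adjusted p = 0.197). On 227264_at it was -0.13 (-0.32 to 0.06, adjusted p = 0.459), and the groups overlapped. The probe set annotated to MIR146A alone that passed the filter, 232504_at, read 4.28, 4.59 and 4.46 in mock and 5.86, 6.73 and 6.84 with anti-miR-21 (log2 fold change 2.03, limma adjusted p = 0.0163). Its mock values lay just above the filter. The other MIR146A probe set, 238225_at, lay at background, from 2.42 to 2.51 over the 6 arrays, so this rise rests on 1 probe set. Probe set 232504_at measures a longer transcript of the locus, not the mature miR-146a shown above, and a relation to TRAF6 or IRAK1 was not tested.

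**Figure D3:**
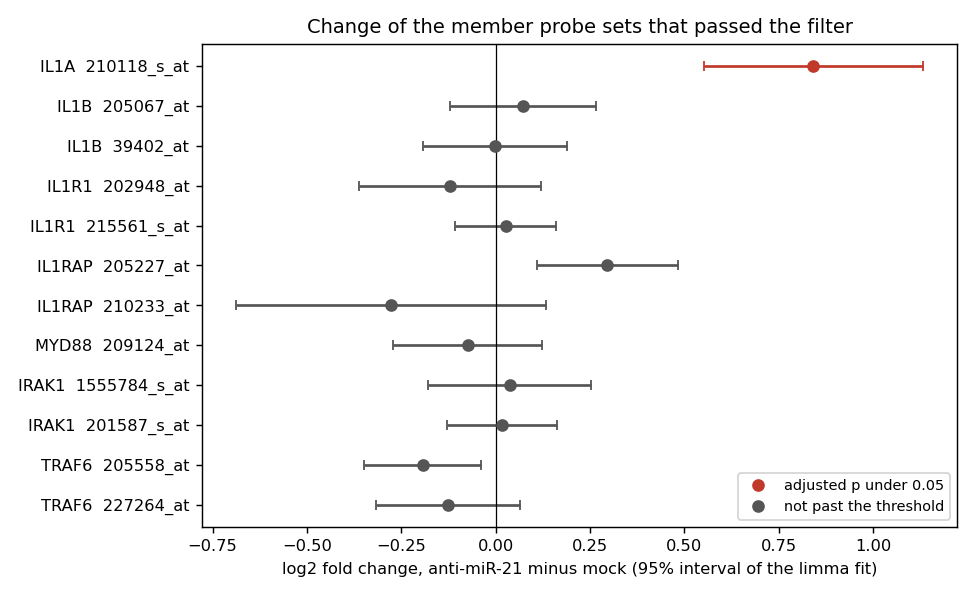
Log2 fold change (anti-miR-21 minus mock) of the 12 tested member probe sets with the 95% interval of the limma fit. IL1A at 0.84 is the 1 probe set past the threshold, and the intervals of IL1RAP 205227_at (0.11 to 0.48) and TRAF6 205558_at (-0.35 to -0.04) exclude 0 without passing after adjustment.

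Around these members, a wider list of 39 IL-1 pathway genes covered other family ligands and receptors, inflammasome genes, IRAK relatives and the kinase complexes below TRAF6. In all 22 were tested: 1 fell, none rose and the other 21 did not pass, against 1.22% of all genes called lower. With limma's unadjusted p below 0.05, 1 was higher and 3 lower, at a cutoff that many genes passed, as the rank of TRAF6 above shows. The median log2 fold change was -0.062, against -0.018 over all genes, and 27.3% of the 22 had non-overlapping arrays, against 25.5% of all genes. IRAK4 and UBE2V1 were not analysed here, and the other 15 lay below the filter, among them the decoy receptor IL1R2 and the IL-36 genes IL36A, IL36B, IL36G and IL36RN.

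The gene that fell was CHUK, which encodes IKKα, a catalytic subunit of the kinase complex that acts on NF-κB inhibitors. Its only tested probe set read 10.75, 10.51 and 10.39 in mock and 9.76, 9.85 and 9.67 with anti-miR-21, without overlap. The difference was 1.73-fold (log2 fold change -0.79 ± 0.101 SE, limma adjusted p = 0.0174). The call did not hold when mock replicate 2 (adjusted p = 0.0804) or treated replicate 2 or 3 (0.0615 and 0.0734) was left out, with log2 fold changes of -0.87 to -0.69 over the fits that left out 1 array. The other subunits of the complex did not pass. On its brightest probe set IKBKB, the second catalytic subunit, had a log2 fold change of 0.04 (adjusted p = 0.681). IKBKG, the regulatory subunit, had -0.08 on its brightest probe set (adjusted p = 0.521). On IKBKG 36004_at the log2 fold change was -0.25 (unadjusted p = 0.0221, limma adjusted p = 0.197), without overlap. The other tested IKBKB probe sets had -0.01 and 0.03 (adjusted p = 0.97 and 0.905), and there the groups overlapped.

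Counted by the brightest probe set of each gene, the next smallest p values in the wider list belonged to regulators of IRAK and receptor signalling, none of which passed. PELI1, a ubiquitin ligase of IRAK proteins, differed by 0.49 ± 0.112 (SE) on the log2 scale, with a limma adjusted p of 0.0888. TOLLIP, which binds IRAK1 and restrains it, had -0.21 (adjusted p = 0.0933), and its other 2 tested probe sets -0.09 and -0.02. SIGIRR, an inhibitory receptor of the family, had -0.25 (adjusted p = 0.205), and -0.29 on its second probe set (adjusted p = 0.0897). IL18, a family ligand that also needs caspase cleavage, had -0.18 (adjusted p = 0.541), and CASP1, the caspase that cleaves both, 0.04 (adjusted p = 0.857). The other tested CASP1 probe sets had -0.18, -0.21 and -0.04 (limma adjusted p = 0.191, 0.319 and 0.784). UBE2N, the ubiquitin-conjugating enzyme that works with TRAF6, had -0.08 on its brightest probe set (adjusted p = 0.499) and -0.26 on 212751_at (adjusted p = 0.0679). UBE2N, IL18 and CASP1, like the IKK subunits above, were named after their values were seen.

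A second list held 27 genes that IL-1 is known to induce through NF-κB. In all 17 were tested: 6 rose, none fell and the other 11 did not pass, against 0.913% of all genes called higher. By limma's unadjusted p below 0.05, 12 were higher and none lower, and the share of all genes at this cutoff is again not given. All treated arrays lay above all mock arrays in 13 of the 17, against 10.4% of all genes, and the median log2 fold change was 0.389. The upward shift of such genes on these arrays was known when the list was written, so it is no independent evidence of direction, and whether IL-1α itself acted on them was not tested. CSF2, BIRC3 and ZC3H12A were not analysed here. CXCL5, CCL20, PTGS2, VCAM1, CSF3, MMP1 and MMP3 lay below the filter in both groups.

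The members of this list that rose were the chemokines CXCL1, CXCL2, CXCL3 and CXCL8, the cytokine IL6 and NFKBIZ, a nuclear regulator of NF-κB targets, with log2 fold changes of 0.55 to 1.16. CXCL2, for example, read 10.65, 10.70 and 10.67 in mock and 11.39, 11.72 and 11.95 with anti-miR-21 (limma adjusted p = 0.0184). The CXCL genes are paralogs whose probe sets may share signal. When mock replicate 1, 2 or 3 was left out, the count of 6 became 4, 0 or 1, and when treated replicate 1, 2 or 3 was left out it became 7, 1 or 2. Without the filter on dim probe sets it was 5, with the CXCL8 call lost (limma adjusted p = 0.061), and with the filter at 6 or probe sets averaged it was 8. Named after their values were seen, RELB, an NF-κB subunit, had 0.85 (limma adjusted p = 0.0546), and the adhesion molecule ICAM1 had 0.39 on its brightest probe set (adjusted p = 0.0695) and rose by 0.72 on 202638_s_at (adjusted p = 0.0438). NFKBIA and TNFAIP3, inhibitors that feed back on the pathway, had 0.20 and 0.18 (adjusted p = 0.204 and 0.142). The groups overlapped for NFKB1, TNIP1, LIF and SOD2. Their log2 fold changes were -0.0002, 0.02, 0.03 and 0.15 (limma adjusted p = 0.999, 0.926, 0.839 and 0.747).

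**Figure D4:**
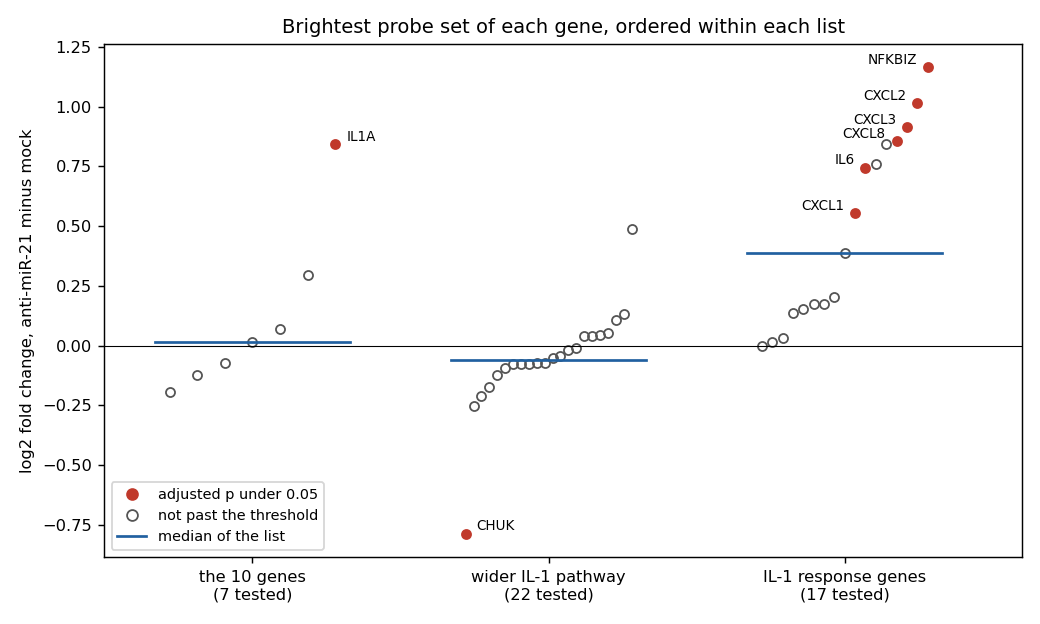
Log2 fold change (anti-miR-21 minus mock) of the brightest tested probe set of each gene, in order of size within the 10 genes (7 tested), the wider IL-1 pathway list (22) and the IL-1 response list (17), with called genes filled and named and the list median as a line. IL1A stands at 0.84 and CHUK at -0.79, and the 6 called response genes lie between 0.55 and 1.16.

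Monocytes and macrophages are a main source of IL-1 in tissue, so their markers were examined beside IL1A. Of 9 markers, 8 had a single-gene probe set and 1 passed the filter, CD14 (log2 fold change 0.12, limma adjusted p = 0.574). PTPRC, CSF1R, LYZ, CD163, ITGAM, AIF1 and TYROBP lay below it in both groups. The summed linear level of the 8 was 81 to 83 in mock and 85 to 91 with anti-miR-21. CD14 read 5.23 to 5.27 in mock, and of the treated arrays replicates 2 and 3 lay inside that range (5.25 both) and replicate 1 above it (5.58). The other 7, defining markers of these cells, were at background, so the sums are no measure of such cells. The hepatocyte genes ALB, APOA1, APOB, TTR and FGB were below the filter in this liver-derived line. SERPINA1 and TF passed it (0.10 and 0.02), TF only at the line, with 3.98 to 4.05 over the 6 arrays. The list's sum was 3657 to 3939 in mock and 3981 to 4109 with anti-miR-21, without overlap. Nearly all of that sum is SERPINA1, which read 11.82 to 11.93 in mock and 11.94 to 11.99 with anti-miR-21 (limma adjusted p = 0.359). The part of this difference in the IL1A result was not tested. Of 7 endothelial markers, PECAM1, CDH5, VWF, KDR and ERG lay below the filter, and ENG and TEK passed it (0.16 and 0.04). The sums were 1228 to 1378 in mock and 1321 to 1625 with anti-miR-21. Nearly all of this is ENG, which read 10.19 to 10.37 in mock, where TEK read 4.59 to 4.67. Of 6 mesenchymal markers, 5 passed the filter, among them COL3A1 and COL1A1 (-0.26 and -0.28). The sums were 93387 to 97925 in mock and 94141 to 95854 with anti-miR-21. Nearly all of this is VIM and SPARC, which read 15.61 to 15.78 and 15.19 to 15.23 in mock, so the sums say little about the collagens. No marker was called, and at an unadjusted p below 0.05 limma gave 0 in these 4 lists.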

How the data were processed

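RNA of 6 SK-Hep1 cultures was measured on single-colour arrays, 1 per culture. The authors deposited 1 log2 value per probe set and array, and the submitters' processing notes name GCRMA as the tool; no version is named in the notes used here. GCRMA models background from probe sequence, which makes folds from dim probe sets less certain. The deposited log2 values were used unchanged. Gene names came from the platform annotation, with symbols updated through Entrez identifiers against RefSeq (41037 of 41091 single-gene probe sets matched); none was named from a probe set listing several genes, and 62 controls were left out.

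The groups were compared in R 4.3.3 by limma 3.58.1, fitting group alone, with moderated variances and two-sided tests. Benjamini-Hochberg adjustment ran over all 22408 probe sets whose mean was at least 4. A gene took its brightest such probe set. The fits were tested on simulated data. The number of arrays limits the precision.

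Members, lists and tests were chosen with earlier results of these data known. All members were described, with the called genes and the 4 smallest p values of each of the 2 wider lists (2 for each marker list), and for likeness to IL1A the 3 most correlated genes. Alternatives varied the filter, centring, variance model, replicate block, probe set summary and each array left out.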

Additional observations from a re-analysis of the deposited data

How the results depend on the processing

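The count of 1 member called higher was also obtained with the filter at 6, median centring and the trend and robust setting, and was 0 without the filter. It ranged from 0 to 1 with 1 array left out, the wider list's count of genes called lower from 0 to 1, that of response genes called higher from 0 to 7 and that of all probe sets called (486) from 96 to 572. The labels do not say whether shared numbers pair samples across groups. Same-numbered deviations from the group means correlated at -0.361, -0.266 and -0.002, and differently numbered ones at -0.232 to 0.399. With 3 arrays a group these values depend on each other and do not settle the pairing. With the replicate block, 91 probe sets were called, with 0 members, 0 wider and 0 response genes (IL1A adjusted p = 0.0715, CHUK 0.055). Signs changed only in probe sets that were not called, with 1 array left out: IL1B 39402_at ran from -0.06 to 0.0716, IL1R1 215561_s_at from -0.0147 to 0.0482, IRAK1 1555784_s_at from -0.0214 to 0.12 and IRAK1 201587_s_at from -0.0345 to 0.0553. Of 221 alternatives for single probe sets and genes, 173 kept direction and side of the threshold, 40 kept direction but no longer passed and 8 changed sign. All 40 belonged to the called genes, IL1A, CHUK and the 6 response genes. Many of the 173 belonged to results that were never called and had no call to lose, so that count is no measure of how stable the calls were. Signal below the filter limits what can be said of IL1RN, IL1RL1 and IL33.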

Other observations

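The genes whose brightest probe sets followed IL1A most closely over the 6 arrays were CXCL2 (Pearson r = 0.999), GOLGA8A, a golgin (r = 0.997), and GCNA, a germ cell nuclear protein (r = 0.995). The 6 arrays fall into 2 treatment groups, and each of these genes was higher in the treated group, so the points share that split and the correlations are given as a description only. Within the treated group all 3 genes had their lowest value in replicate 1 and their highest in replicate 3, as IL1A did. GOLGA8A read 8.93, 9.13 and 9.37 there, against 8.45 to 8.48 in mock, and GCNA read 5.94, 6.42 and 7.07, against 4.02 to 4.24. The probe sets of GOLGA8A and CXCL2 carry the suffix that marks probes shared with other transcripts.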
